A study of Mus musculus with 2 samples.

Results

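Aminoacyl-tRNA synthetases are the enzymes that join each amino acid to its own transfer RNA (tRNA), the step that sets which amino acid a codon calls for. Cells make separate enzymes for protein synthesis in the cytosol and in mitochondria from different nuclear genes, except that 1 gene each for glycine (Gars) and lysine (Kars) serves both. The enzymes fall into class I and class II by the fold of their catalytic domain, and several cytosolic ones are held with small scaffold proteins in the multisynthetase complex. Granulocytes and monocytes arise from common progenitors in the bone marrow, and granulocytes leave the cell cycle as they mature.

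The members were chosen by gene name on the arrays: every single-letter synthetase symbol (such as Iars or Iars2), the glutamyl-prolyl enzyme Eprs, the phenylalanyl subunits, Pars2, Qars and the complex proteins Aimp1 and Aimp2. The rule found 77 probes for 39 genes, out of 41174 probes and 19514 named genes in all. They are 18 cytosolic genes, 17 mitochondrial genes, Gars and Kars, and the 2 complex proteins, which the arrays carry under their older names Scye1 (Aimp1) and Jtv1 (Aimp2). All 39 genes had at least 1 probe well above background on at least 1 array, and 61 of the 77 probes were well above background on both arrays. The naming rule itself uses no measured value.

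The study compared granulocytes with monocytes. Both came by sorting from bone marrow, the mice were wild type, male and of the strain C57BL/6, and there was 1 one-colour array for each cell type. Neither group carried an engineered allele or received a treatment per the labels, and neither the mice's age and number nor the sorting gates were stated in the labels. Each level below is log2 of the processed spot signal minus the array's 75th percentile of it, so 0 is that percentile, and each difference is granulocyte minus monocyte. With 1 array per cell type there is no replicate check, no test was made, and genes are called by size alone, at 4-fold or more. The arrays gave a difference for 15430 named genes, with a median of 0.40. Monocytes had the higher level by 4-fold or more for 10.5% of them and granulocytes for 8.57%.

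All 5 measured granulocyte markers were higher in granulocytes (differences of 3.45 to 9.65), and all 6 monocyte markers were higher in monocytes (-8.51 to -1.56). Markers of other cells were present on both arrays. The signals of the 3 T cell markers, each divided by the array's 75th percentile, summed to 0.467 in granulocytes and 2.26 in monocytes. The 2 measured NK cell markers summed to 0.133 and 1.77, and the 4 stem and progenitor markers to 2.13 and 6.03. Within these lists Cd3e (0.44), Kit (1.35) and Gata2 (1.76) differed towards granulocytes, while Lck (-3.98), Cd3g (-3.44), Cd34 (-3.51) and Flt3 (-1.41) differed towards monocytes. The erythroid (5.86 and 1.75 over 3 genes), B cell (1.52 and 0.699 over 4 genes) and platelet markers (2.71 and 0.826 over 3 genes) summed higher on the granulocyte array. The part of such cells in the differences below was not tested, and in bulk RNA fewer cells of a type cannot be told apart from less RNA per cell.

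The probes of 3 genes are shown first because they cover much of the range of the cytosolic class: Iars has its largest difference towards monocytes, Qars stayed within 2-fold, and the probes of Vars differed by 2-fold. Each is a 60-base array probe whose ends lie further apart in the mouse genome (build mm8) than its own length, so that each spans an intron. The Iars probe lies at chr13:49740652-49741961 (plus strand), the Vars probe at chr17:34622786-34623004 (plus) and the Qars probe at chr9:108373306-108373928 (plus).
Iars: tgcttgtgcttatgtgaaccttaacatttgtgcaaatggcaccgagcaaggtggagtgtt
Vars: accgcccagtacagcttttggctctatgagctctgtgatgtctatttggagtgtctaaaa
Qars: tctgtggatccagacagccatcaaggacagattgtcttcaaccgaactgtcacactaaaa
The differences read by these 3 probes were -3.54 for Iars, -2.68 for Vars and -0.68 for Qars.

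Most synthetase genes were lower in granulocytes than in monocytes. The median difference over the 39 members was -1.27, against 0.40 over all named genes. Among them 10 were at least 4-fold and 25 at least 2-fold higher in monocytes, where the shares of all genes were 10.5% and 21.0%. In granulocytes 1 member, Ears2, was higher by 4-fold or more, and on the representative probes no other member reached 2-fold, which 29.0% of all genes did. Of the 39, 35 lay below the median of all genes. The choice of scaling sets the zero: without scaling each difference measured on both arrays is lower by 0.87, and the median of all genes, bounds included, falls to -0.43.

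**Figure D1:**
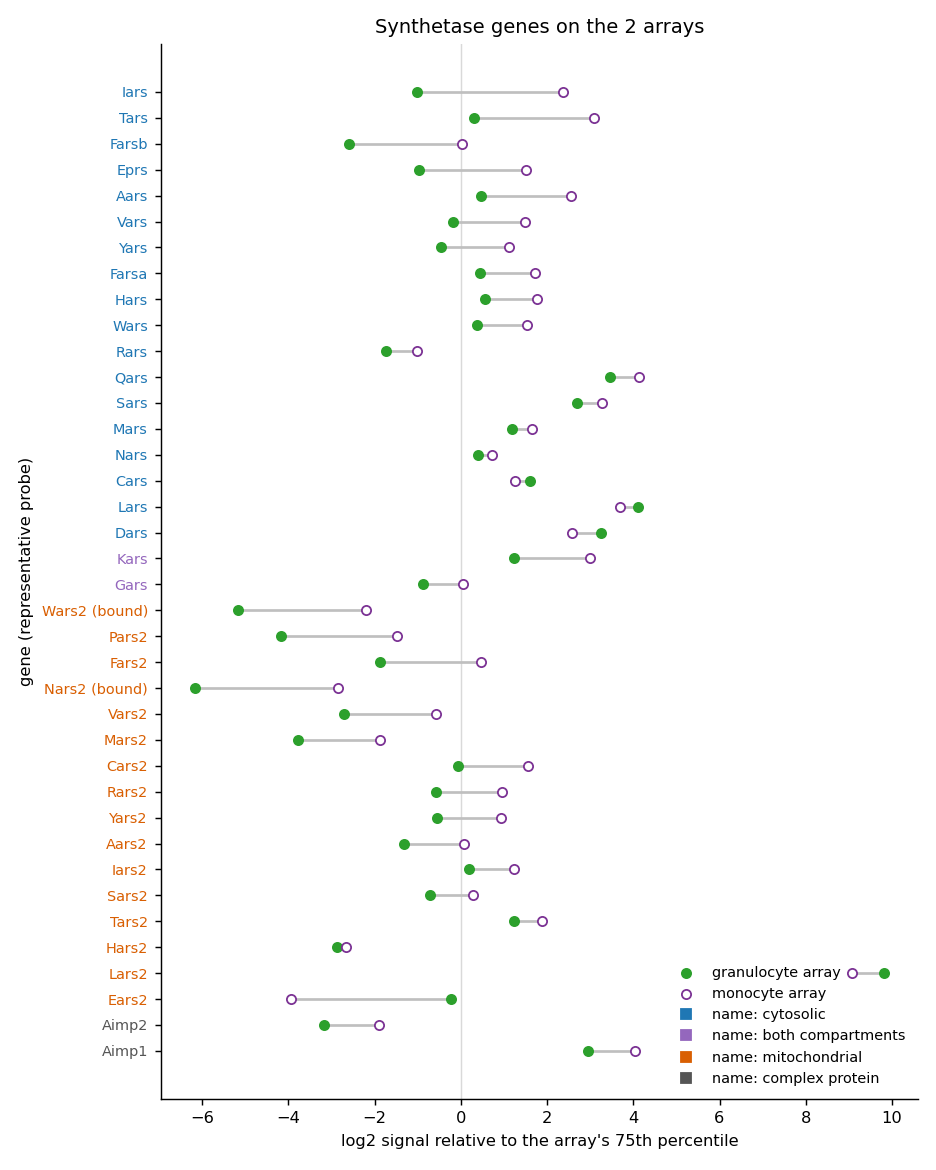
Level of 38 of the 39 member genes in granulocytes (filled green) and in monocytes (open purple), as log2 signal relative to the array's 75th percentile, with gene names coloured by class and 1 probe per gene. The open symbol lies to the right for 33 of the 38 genes drawn, and the 5 exceptions are Cars, Lars, Dars, Lars2 and Ears2; for Wars2 and Nars2 the granulocyte symbol is a signal not well above background, and their differences are bounds.

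Among the 18 cytosolic synthetase genes the median difference was -1.18, and the values ran from -3.38 to 0.69. Monocytes had the higher level by 4-fold or more for 5 of them: Iars, Tars, Farsb, Eprs and Aars. That is 27.8% of the class, against 10.5% of all named genes. Iars, which charges isoleucine, had the largest difference, with a level of -1.01 in granulocytes and 2.37 in monocytes, a 10.4-fold difference. Its second probe measured on both arrays, the one printed above, gave -3.54. The threonyl enzyme Tars stood at 0.31 in granulocytes and 3.09 in monocytes (6.86-fold), and its 2 probes gave -2.78 and -2.80. For each of these genes the probes measured on both arrays lay close together; another Iars probe, designed on a clone record, was dim in granulocytes and gave no fold.

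Farsb, the beta subunit of the phenylalanyl enzyme, had levels of -2.59 in granulocytes and 0.02 in monocytes, a 6.11-fold difference on its only probe. Farsa, the alpha subunit that works in the same tetramer, differed by -1.28, with levels of 0.44 and 1.72. Another Farsa probe measured on both arrays gave -1.86. The RefSeq probe of Farsa was not well above background in granulocytes and gave a bound of -0.85. Eprs joins the glutamyl and prolyl activities in 1 chain. It had levels of -0.98 and 1.51 (5.62-fold), and its 4 probes lay between -2.75 and -2.49. Aars, the alanyl enzyme, had levels of 0.46 and 2.55, a 4.25-fold difference.

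Not all probes of Aars gave that reading. Its 2 probes of the RefSeq transcript gave -2.09 and -2.38, while a probe designed on a clone record, with weak signals of 14.2 and 20.0, gave 0.38. Probes of clone records stood apart for other members too. For Hars, the histidyl enzyme, the RefSeq probe gave -1.22 and the clone probe -0.29, and for Qars, the glutaminyl enzyme, 2 RefSeq probes gave -0.68 and -0.72 and the clone probe 0.13. Qars had levels of 3.46 in granulocytes and 4.13 in monocytes on its representative probe. Of the 77 member probes 20 match no transcript in the RefSeq annotation used, and with the other probes alone the cytosolic median was -0.999.

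In the middle of the cytosolic class, Vars (valine) stood at -0.19 in granulocytes and 1.49 in monocytes on its brightest probe, a difference of -1.67, while the intron-spanning probe gave -2.68. Both probes read it lower in granulocytes, by amounts 2-fold apart. Yars (tyrosine, -1.57), Hars (-1.22) and Wars (tryptophan, -1.14) were also at least 2-fold higher in monocytes, as was Farsa. Rars (arginine, -0.70), Qars (-0.68), Sars (serine, -0.58), Mars (methionine, -0.47) and Nars (asparagine, -0.34) differed by less than 2-fold.

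At the other end of the class, Dars and Lars lay above the median of all genes and Cars just below it. Dars, the aspartyl enzyme, had a level of 3.26 in granulocytes and 2.57 in monocytes, a difference of 0.69, and its second RefSeq probe gave 0.38. Clone-record probes of Dars gave 1.56 and, not well above background in monocytes, a bound of 1.37, so that the median of its probes was 1.03, past 2-fold. Lars, the leucyl enzyme, had levels of 4.11 and 3.69 (0.42), with 0.58 and -0.34 by its other probes. Cars, the cysteinyl enzyme, had levels of 1.61 and 1.25 (0.36), with 0.34 and -0.09 by its other probes. None of the 3 reached 2-fold on its representative probe, and all 3 turned negative without scaling (Dars -0.18, Lars -0.45, Cars -0.51).

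**Figure D2:**
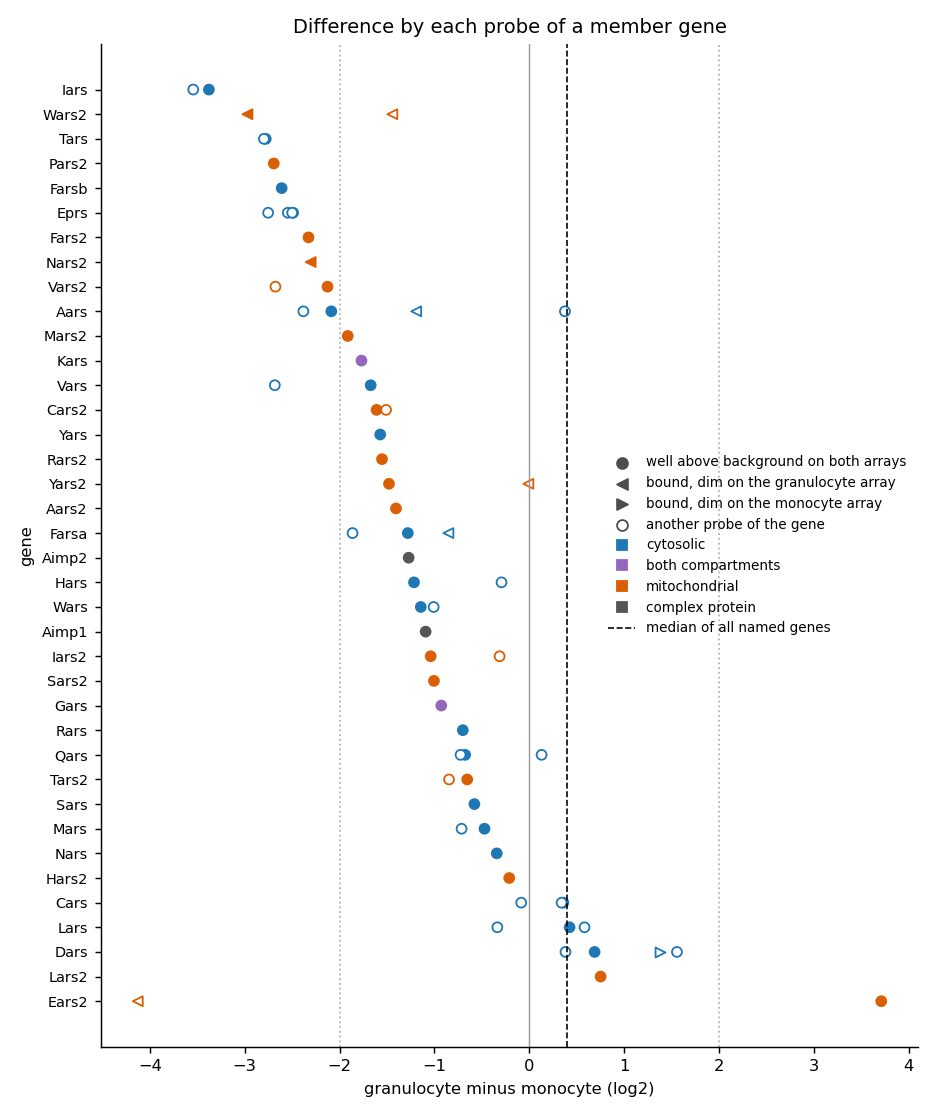
Difference between the arrays (granulocyte minus monocyte, log2) for the member probes that gave a value, 1 row for each of 38 genes, coloured by class. Filled symbols are the representative probes, open symbols other probes, triangles lower bounds that point towards the larger difference, dotted lines mark 4-fold and the dashed line the median of all genes (0.40). Iars, Tars and Eprs have probes close together, and Ears2 has probes on opposite sides, at 3.71 and -4.13.

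Gars and Kars, which serve both compartments, were each higher in monocytes. Kars had processed signals of 797 in granulocytes and 4970 in monocytes, a difference of -1.77 after scaling. Gars had -0.88 and 0.05, a difference of -0.93. Each rests on a single probe.

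The 17 mitochondrial synthetase genes had a median difference of -1.48, with 5 genes at least 4-fold and 12 at least 2-fold higher in monocytes. Those are 29.4% and 70.6% of the class, against 10.5% and 21.0% of all named genes. None of the 5 stayed past 4-fold with normexp background correction. Among the 5, Wars2, the mitochondrial tryptophanyl enzyme, and Nars2, the asparaginyl enzyme, were not well above background on the granulocyte array. By a bound, Wars2 was 7.84-fold or more higher in monocytes, where its level was -2.19, and Nars2 4.94-fold or more, where its level was -2.86. Each bound sets the monocyte level against the higher of the gene's own granulocyte value and the lowest granulocyte signal that counted as well above background (-5.16). It rests on that lowest signal, so it is an estimate and not a strict limit. Other RefSeq probes of Wars2 gave a bound of -1.44 and no fold, and the other Nars2 probe was not well above background on either array. With normexp the values were -0.60 for Wars2 and -0.44 for Nars2. Pars2, the prolyl enzyme, had levels of -4.17 and -1.48 (6.47-fold), Fars2, the single-chain phenylalanyl enzyme, -1.87 and 0.46 (5.02-fold), and Vars2, the valyl enzyme, -2.71 and -0.58 (4.37-fold). Both probes of Vars2 gave 4-fold or more.

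Mars2 (methionine, -1.91), Cars2 (-1.61), Rars2 (-1.55), Yars2 (-1.48), Aars2 (-1.41), Iars2 (-1.04) and Sars2 (-1.01) were 2-fold to 4-fold higher in monocytes on their representative probes. A clone-record probe of Iars2 measured on both arrays gave -0.31, and one of Yars2 gave a bound of -0.01. With normexp Mars2 (-0.73), Iars2 (-0.95) and Sars2 (-0.84) came within 2-fold. Tars2 (-0.65) was within 2-fold. Hars2 had the difference closest to 0 among the mitochondrial genes, with levels of -2.88 and -2.67 and a difference of -0.21.

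Ears2 and Lars2 were the mitochondrial genes with positive differences, and neither value can be assigned to its enzyme from these probes. Ears2, the mitochondrial glutamyl enzyme, has a probe designed on a clone record (chr7:121829046-121829105, mm8, minus strand) and a probe on its RefSeq transcript (chr7:121830199-121830258, minus strand). The first 30 bases of both are given because the probes read opposite differences.
Ears2 clone record: tttcgatgaagggtgtctgttttcttccaa
Ears2 RefSeq transcript: gtacgggaacgaatccagaaggtgctttct
The clone probe had signals of 289 in granulocytes and 40.4 in monocytes, a difference of 3.71. The RefSeq probe had signals of 9.41 and 303, was not well above background in granulocytes, and gave a bound of -4.13. The fixed rule took the clone probe because it was measured on both arrays, so Ears2 would change from the member highest in granulocytes to the lowest if the RefSeq probe were taken.

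Lars2, the mitochondrial leucyl enzyme, has 1 probe (chr9:123310696-123310755, mm8, plus strand), whose record names the 28S ribosomal RNA Rn28s1 beside the enzyme. The first 30 bases of that probe are acgtcgctttttgatccttcgatgtcggct in its own orientation. Its signals of 305804 and 332363 ranked 2 and 1 among all probes, next to the probe of the 18S ribosomal RNA Rn18s (306287 and 324851). The difference was 0.75 for the Lars2 probe and 0.79 for the Rn18s probe. With Lars2 and Ears2 left out, an alternative chosen after the data were seen, all 15 mitochondrial genes were lower in granulocytes, from -2.97 to -0.21, with a median of -1.55, though Hars2 stood at 0.14 with normexp background correction.

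The cytosolic median was higher than the mitochondrial one by 0.30, and this order did not hold under every setting. It was 0.37 without Lars2 and Ears2, and it turned to -0.03 when class means were taken and to -0.35 with normexp background correction (offset 50 on every probe). Under normexp 1 mitochondrial gene in place of 6 was 4-fold apart, and it was Ears2 (2.49, towards granulocytes). Fars2 (-1.69), Vars2 (-1.19), Pars2 (-1.10), Wars2 (-0.60) and Nars2 (-0.44), past 4-fold as reported, no longer reached it. Of the cytosolic genes 4 in place of 5 were 4-fold apart. The classes overlapped, with values of -3.38 to 0.69 for the cytosolic genes and -2.97 to 3.71 for the mitochondrial genes, or to 0.75 without Ears2. No order of the classes is claimed from 2 arrays.

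By the naming rule 14 amino acids have exactly 1 cytosolic and 1 mitochondrial member gene. For threonine, Tarsl2, a related gene outside that rule, differed by -1.78, with -0.35 by its other probe. Both genes were lower in granulocytes in 11 of these 14 pairs, where 38.2% of all named genes, taken singly, were lower. In none of the 14 pairs were both at least 4-fold apart. Proline, phenylalanine and glutamate are apart from these, since Eprs serves 2 amino acids and the cytosolic phenylalanyl enzyme has 2 subunits. For proline Eprs (-2.49) and Pars2 (-2.69) were both past 4-fold towards monocytes, and for phenylalanine so were Farsb (-2.61) and Fars2 (-2.33), while Farsa was at -1.28. For glutamate Eprs stands against Ears2, whose probes disagree. Isoleucine and threonine had the cytosolic gene further towards monocytes: -3.38 for Iars against -1.04 for Iars2, and -2.78 for Tars against -0.65 for Tars2. For histidine the same order just passed 2-fold (Hars -1.22, Hars2 -0.21). The opposite order, with the mitochondrial gene lower by more than 2-fold, was found in 5 pairs, among them those for methionine, tryptophan, asparagine and cysteine: Cars stood at 0.36 and Cars2 at -1.61, and Nars at -0.34 and Nars2 at -2.30. The remaining 6 pairs, alanine, arginine, leucine, serine, tyrosine and valine, were within 2-fold of each other, the leucine pair by way of the Lars2 probe described above and with Yars (-1.57) and Yars2 (-1.48) closest together. Wars2 and Nars2 are bounds in their pairs. With normexp the methionine (-0.54 and -0.73), tryptophan (-1.16 and -0.60) and asparagine pairs (-0.36 and -0.44) came within 2-fold, cytosolic gene first. The cysteine (0.24 and -1.52), isoleucine (-3.05 and -0.95), threonine (-2.74 and -0.70) and histidine pairs (-1.22 and 0.14) stayed past it. The arginine pair (-0.36 and -1.42) went past 2-fold under normexp.

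**Figure D3:**
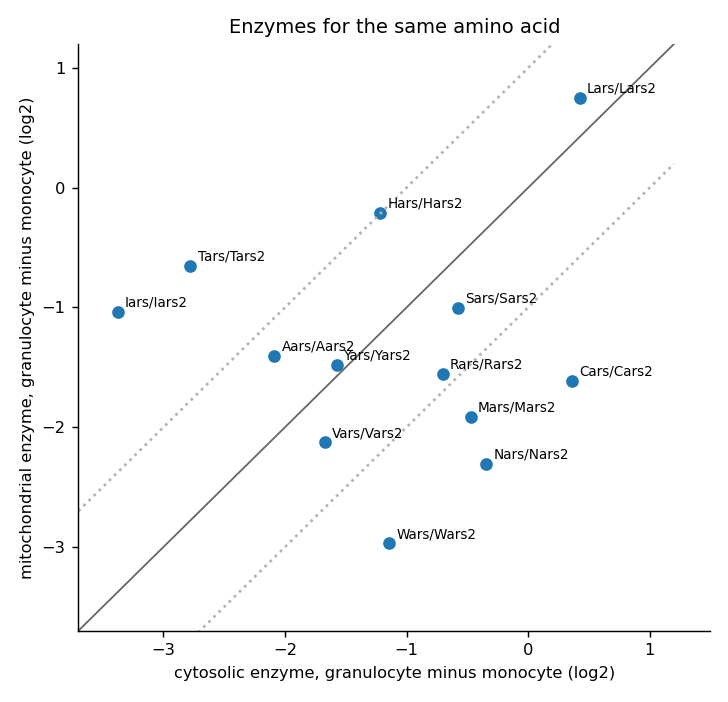
Difference (granulocyte minus monocyte, log2) for amino acids with 1 member gene in each compartment, of the cytosolic enzyme gene on the x axis and of the mitochondrial enzyme gene for the same amino acid on the y axis, 1 point for each of 13 pairs. The solid line marks equal differences and the dotted lines a 2-fold gap. Of these pairs 6 lie between the dotted lines, 3 above them and 4 below, and Wars2 and Nars2 are bounds.

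The multisynthetase complex holds 8 of the member enzymes with Aimp1, Aimp2 and Eef1e1 as scaffolds. Its 11 genes did not share 1 difference: they ran from -3.38 (Iars) to 0.69 (Dars) with a median of -1.09. Aimp1 had levels of 2.96 in granulocytes and 4.05 in monocytes (-1.09), and Aimp2 had -3.18 and -1.91 (-1.27). Eef1e1, the third scaffold and not itself a member by name, stood at -0.82 and 1.68 (-2.50). The 7 cytosolic enzymes of the complex, Kars aside, had a median of -0.68, and the 11 outside it a median of -1.28. By catalytic fold, the 19 class I genes had a median of -1.48 and the 18 class II genes -1.25. The order differed by compartment. Among cytosolic genes class I stood at -0.92 and class II at -1.25, and among mitochondrial genes at -1.55 and -1.21. Class I includes the Ears2 and Lars2 probes described above.

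Promoters were searched for a core of the amino acid response element, TGATGNAA, to which ATF4 and C/EBP factors bind when cells run short of amino acids, and for the E-box CACGTG, to which Myc with Max and other factors bind. RefSeq promoters (250 bases before to 50 after the start, build GRCm38.p6, both strands searched) were at hand for 28 of the 39 genes, with 30 promoters in all. Genes without an entry included Cars, Hars, Hars2, Lars, Mars, Nars, Pars2, Rars, Vars and Wars. TGATGNAA was found in 5 of the 30 member promoters (16.7%) and in 3.97% of all 32851 promoters. The 5 genes are Aars, Gars, Iars, Tars and Yars, all cytosolic or serving both compartments. Stretches of 30 bases around the match are given for 4 of them because the 5 genes include 3 of the 5 cytosolic enzymes at least 4-fold higher in monocytes. Capitals mark the match, read on the gene's strand, where the reverse complement of the motif also counts.
Iars: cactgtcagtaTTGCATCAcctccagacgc
Tars: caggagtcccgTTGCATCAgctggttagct
Yars: acgagctcagcTGATGCAAcccgacgggac
Gars: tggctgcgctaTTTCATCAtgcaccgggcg
These stretches lie at chr13:49682126-49682155 (plus strand) for Iars, chr15:11399655-11399684 (minus) for Tars, chr4:129189895-129189924 (plus) for Yars and chr6:55037960-55037989 (plus) for Gars. The match begins 30 bases before the start in Gars and 15 before it in Tars, and on base 4 after it in Yars and base 8 in Iars.

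The E-box was found in 5 of the 30 member promoters as well (16.7%), against 7.15% of all promoters, in Aars, Ears2, Farsb, Iars and Tars. Iars, Tars and Aars therefore hold both motifs within these windows, and in no window do the 2 matches overlap. The E-box of Iars is shown because that gene had the largest difference of the 3, and it lies 69 bases before the start at chr13:49682049-49682078 (plus strand), as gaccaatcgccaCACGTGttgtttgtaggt in the same notation. The 5 genes with TGATGNAA had differences of -3.38 to -0.93 with a median of -2.09, and the 23 with a promoter but no match ran from -2.97 to 3.71 with a median of -1.41. The 5 genes with the E-box ran from -3.38 to 3.71 with a median of -2.61. The 23 with a promoter but no E-box ran from -2.97 to 0.75, with a median of -1.41. The value of 3.71 is that of the Ears2 clone probe. A match describes letters in a window, and no binding was measured.

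Genes of the amino acid response did not move one way between the arrays. The list's median difference was 0.08. Past 4-fold, 5 of its 23 measured genes were higher in monocytes and 6 in granulocytes, where the shares of all named genes were 10.5% and 8.57%. Higher in granulocytes were Slc7a11, the cystine transporter (levels of 4.10 and -0.84, difference 4.94), Chac1, which degrades glutathione (2.23 and -1.41, 3.63), Trib3, a pseudokinase that restrains ATF4 (-0.19 and -3.49, 3.30), and Sesn2, a leucine sensor (5.05 and 1.80, 3.25). Higher in monocytes were Nupr1, a stress-induced nuclear protein (-2.86 and 3.61, difference -6.48), and Psat1 of serine synthesis (-1.47 and 2.51, -3.98). Atf4 and Asns are named for their role after their values were seen: Atf4 itself differed by 0.31, and Asns, the asparagine synthetase, was higher in granulocytes by 2.21.

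Genes that act on the same tRNAs were mostly lower in granulocytes. The 18 tRNA charging partners had a median of -1.87, and past 4-fold 8 of them were higher in monocytes and 1 in granulocytes. The shares over all named genes were 10.5% and 8.57%. Pstk, the kinase on the route to selenocysteine tRNA, had levels of -2.51 and 1.23 (-3.74). Aarsd1, which clears mischarged alanine tRNA, had -0.41 and 2.26 (-2.67). Mitochondria have no glutaminyl enzyme of their own: Ears2 loads glutamate and a transamidase converts it. Its subunit gene Gatb differed by -2.55, and the other two, named here after their values were seen, by -2.48 (Gatc) and -2.40 (Qrsl1). Against the list's direction, Dtd1, which removes D-amino acids from tRNA, was higher in granulocytes (2.52 and 0.36, difference 2.16), as was Prorsd1 (1.13).

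**Figure D4:**
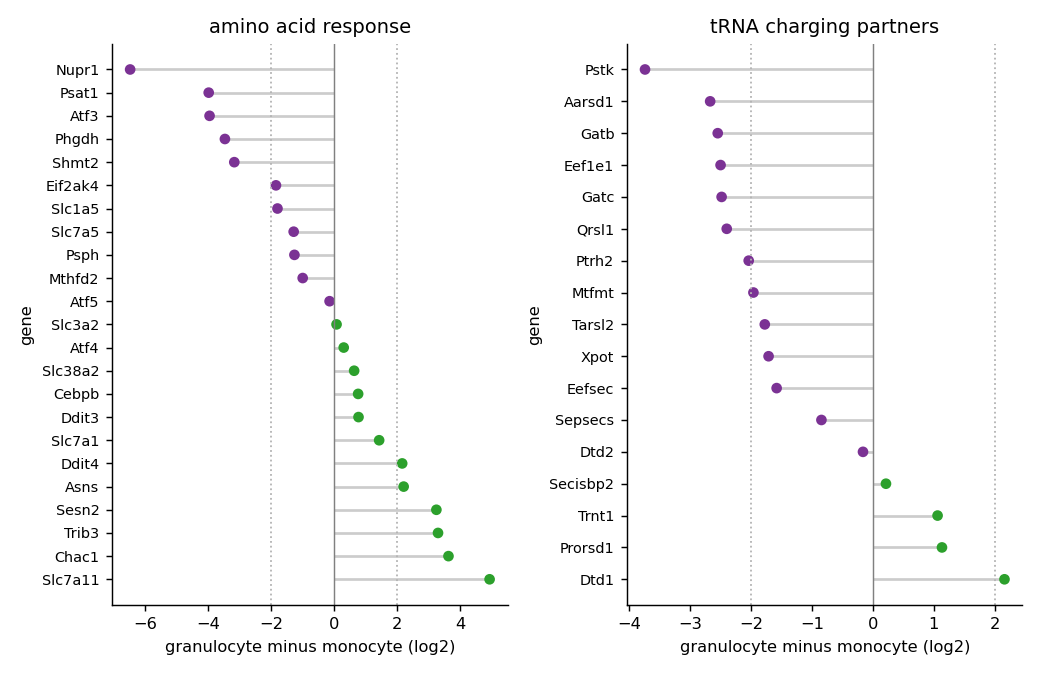
Difference (granulocyte minus monocyte, log2) of each gene of the amino acid response list on the left and of 17 tRNA charging partners on the right, green where higher in granulocytes and purple where higher in monocytes, with dotted lines at 4-fold. The response genes spread from -6.48 (Nupr1) to 4.94 (Slc7a11), while 13 of the 17 charging partners drawn are below 0.

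The 23 measured tRNA modification genes had a median of -1.59, and 9 of them had a 4-fold higher level or more in monocytes and 0 in granulocytes. The lowest in granulocytes were the pseudouridine synthase Pus1 (-3.95), Trmt61a (-3.42) and Trmt1 (-3.31), both tRNA methyltransferases, and Qtrt1 (-3.20), which inserts queuine. The adenosine deaminase Adat1 differed the other way (1.17). The synthetases thus stood among translation genes that were mostly lower in granulocytes. The median was -1.11 for 82 cytosolic ribosomal protein genes (10 at 4-fold), -1.03 for 78 mitochondrial ones (16 at 4-fold) and -0.78 for 65 translation factors, kinases and regulators with such names included (9 at 4-fold). The share of members at least 4-fold higher in monocytes was 25.6%, and it was 12.2%, 20.5% and 13.8% in these 3 lists. Over all named genes it was 10.5%, near the shares of the cytosolic ribosomal protein and translation factor lists. The member share depends on how background is handled. With normexp 4 cytosolic genes were 4-fold apart, and 1 mitochondrial gene, Ears2, was so towards granulocytes.

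Proliferation genes differed in the same direction. Each of the 13 on the list was higher in monocytes, all by 2-fold or more and 7 by 4-fold or more. The shares over all named genes were 21.0% and 10.5%. The median of the list was -2.05, and the summed scaled signals of its genes were 87.8 in granulocytes and 415 in monocytes. The part of cycling cells in the synthetase differences was not tested.

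**Figure D5:**
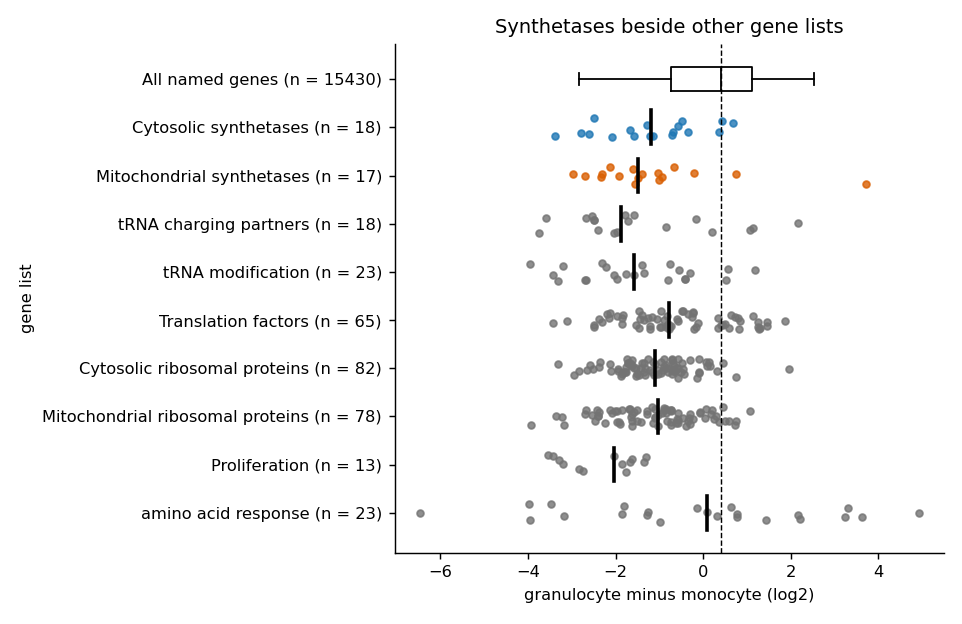
Difference (granulocyte minus monocyte, log2) of each gene in the 2 synthetase classes and in 7 other lists, with thick bars at list medians, and for all 15430 named genes a box of the quartiles with whiskers from percentile 5 to 95. The medians of both synthetase classes (-1.18 and -1.48) lie left of the dashed line at the all-gene median of 0.40, as do those of the other lists.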

How the data were processed

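Per the file headers, both arrays (Agilent mouse, probes placed on build mm8) were scanned into spot values with Agilent Feature Extraction, version 10.5.1.1, and the deposited intensity is a Cy3 spot signal with background and spatial trend removed, not normalised between arrays. Per the labels, 0.5 µg of total RNA was amplified linearly from a T7 promoter. The authors' deposited value table is on a log2 scale and differs from log2 of the scanner's processed signal by 1 constant on each array (-0.24 and -0.92, 99.8% of probes within 0.01), whose origin is not stated. Its column medians are 4.80 and 4.80. Flags (outlier, saturated, well above background) are those deposited.

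From there, outlier spots were dropped (143 and 103), 0 spots were saturated, log2 signals were set against the 75th percentile (339 for granulocytes, 621 for monocytes) and spots averaged per probe. A gene is its probe well above background on most arrays, then the brightest, and a gene dim on 1 array has a bound. Probes were named through RefSeq accessions of GRCm38.p6 (24029), current symbols (6216) or older ones (2384), 8058 stayed unnamed and 410 matched several genes. Of the 77 member probes 56 list RefSeq records of that gene alone. Exon or UTR was not assigned to probes. The median SD between probes of a gene was 0.23 over 5330 genes and 0.39 over 17 members, and repeat spots had SDs of 0.11 and 0.08. Precision is limited by the number of arrays. The averaging of spots and the choice of a gene's probe were tested on simulated data, made from the monocyte array with known shifts added. That test did not cover the outlier, scaling and bound steps. Of the alternatives, normexp (offset 50) used limma 3.58.1, and quantile normalisation was computed without it.

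A few items are not reported here, though counts and medians include them. The members and lists were chosen with earlier results of these data known. Values on both arrays are given for members at least 4-fold apart, the ends of each class, members against its sign and members whose probes disagree by 2-fold or in sign, and of each list up to 4 genes in the direction of its median and 2 the other way.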

Additional observations from a re-analysis of the deposited data

How the results depend on the processing

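No paired analysis was possible because each cell type has 1 array. The cytosolic and mitochondrial medians were -2.05 and -2.35 without scaling, with 10 and 11 genes at least 4-fold apart, and -1.73 and -2.02 with spike-in scaling, with 10 mitochondrial genes apart; set against the median of all genes they were -1.62 and -1.92 under both, and -1.58 and -1.88 as reported. With normexp the mitochondrial median was -0.84 with 1 gene, Ears2, apart, and the cytosolic minus mitochondrial gap was -0.35. With the median of a gene's probes the cytosolic median was -0.92 and Ears2 was -0.21. With the probe of smallest difference among those measured on most arrays, the cytosolic median was -0.64, the gap 0.77 and Aars 0.38. With RefSeq records alone, added after the data were seen, Ears2 was -4.13. With class means the mitochondrial value was -1.16 and the gap -0.032. At 2-fold 10 cytosolic and 13 mitochondrial genes were apart, and at 8-fold 1 and 1. The median scaling, quantile normalisation, the authors' table, both filters on dim probes and leaving out Lars2 or Ears2 moved no class median by more than 0.23. Of the 39 genes 31, and of the 11 at least 4-fold apart 9, did not turn sign in any setting, Ears2 and Aars being the exceptions among the 11. Wars2 gave no fold with the probe of smallest difference, whose bound was 0. The cause of these shifts was not tested. Dim signals limit Wars2 and Nars2 to bounds.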
